A study of Mus musculus with 6 samples.

Results

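Cops8, Ipo9, Thap4, Rpe, Rgl1, Gin1, Lgr6, Dnm3 and Dnm3os are 9 mouse genes on chromosome 1, the chromosome that carries miR-214. The first 7 were chosen because they read lower in miR-214 knockout (KO) tissue than in wild-type (WT) tissue on these same arrays. Dnm3 and its opposite-strand RNA Dnm3os, from which miR-214 is processed, stand beside them as the host locus. Every probe that the platform annotation assigns to these symbols was taken, which gave 21 of the 45281 probes on the array and 9 of its 19057 named genes. Because the KO minus WT difference chose the genes, that difference is described for them without a test.

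Expression was measured on 6 Illumina bead arrays, on which each probe is a short oligonucleotide carried by many beads and read as the brightness of bound Cy3-labelled RNA. Hearts were taken at postnatal day 14 (P14) and at 8 weeks (adult), and the tibialis anterior, the shin muscle built mostly of fast fibres, at 8 weeks. Each of these 3 settings had 1 array of material pooled from 3 miR-214 KO mice and 1 of material pooled from 3 WT mice. All animals are labelled male and of mixed strain background, and neither the construction of the KO allele nor the relation of KO to WT animals is given in the sources used here. A difference within a setting therefore has no replicate check. In whole tissue, fewer cells of a type and less RNA per cell cannot be told apart.

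The 7 genes chosen for their low readings act in different processes. Cops8 is a subunit of the COP9 signalosome, which removes the ubiquitin-like protein Nedd8 from cullin ubiquitin ligases, and its loss from mouse cardiomyocytes is known to disturb protein degradation and to cause heart failure. Rpe, ribulose-phosphate epimerase, interconverts sugars of the pentose phosphate pathway. Ipo9 is an importin that carries histones and actin into the nucleus, and Thap4 joins a THAP zinc finger to a haem-binding domain. Rgl1 activates Ral GTPases downstream of Ras, Gin1 derives from the integrase of a retrotransposon, and Lgr6 is a receptor for R-spondins, the secreted amplifiers of Wnt signalling. Dnm3 is a dynamin, a GTPase that pinches off membrane vesicles.

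A microRNA pairs with messenger RNAs mainly through its seed, bases 2 to 8 from its 5′ end. The mature sequences of the deleted microRNA are shown because they define the locus, with the seed in capitals (RefSeq, GRCm38.p6). The 3p arm lies at chr1:162223438-162223459 and the 5p arm at chr1:162223397-162223418, both on the plus strand. Neither arm has a value on the array, and the genotype labels were therefore not checked by the targeted RNA itself.
mmu-miR-214-3p: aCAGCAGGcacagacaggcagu
mmu-miR-214-5p: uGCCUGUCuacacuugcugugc

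The promoters of the 4 genes with the lowest mean differences are shown because these genes read low together. Each window runs from 250 bases before to 50 bases after the RefSeq start site on GRCm38.p6. Capitals mark the motifs searched on both strands. These were the CCAAT box, the TATA motif TATAAA, the GC box GGGCGG, the ETS-type motif CCGGAA and the palindromic motif of NRF1, and matches that overlap were counted separately. Cops8 lies at chr1:90603175-90603474 on the plus strand, Rpe at chr1:66700581-66700880 on the plus strand, Ipo9 at chr1:135430450-135430749 on the minus strand and Thap4 at chr1:93754789-93755088 on the minus strand.
Cops8: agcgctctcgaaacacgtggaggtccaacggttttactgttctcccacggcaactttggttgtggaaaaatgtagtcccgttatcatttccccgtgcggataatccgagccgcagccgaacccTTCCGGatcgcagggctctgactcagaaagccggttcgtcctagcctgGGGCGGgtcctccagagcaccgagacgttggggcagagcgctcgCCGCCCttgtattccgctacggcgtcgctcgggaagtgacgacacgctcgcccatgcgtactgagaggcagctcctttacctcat
Rpe: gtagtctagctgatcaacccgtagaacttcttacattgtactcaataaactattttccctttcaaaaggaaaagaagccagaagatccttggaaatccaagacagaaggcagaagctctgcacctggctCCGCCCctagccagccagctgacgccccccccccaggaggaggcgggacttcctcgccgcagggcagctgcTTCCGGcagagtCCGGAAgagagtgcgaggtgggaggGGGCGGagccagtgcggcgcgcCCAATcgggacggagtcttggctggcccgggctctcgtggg
Ipo9: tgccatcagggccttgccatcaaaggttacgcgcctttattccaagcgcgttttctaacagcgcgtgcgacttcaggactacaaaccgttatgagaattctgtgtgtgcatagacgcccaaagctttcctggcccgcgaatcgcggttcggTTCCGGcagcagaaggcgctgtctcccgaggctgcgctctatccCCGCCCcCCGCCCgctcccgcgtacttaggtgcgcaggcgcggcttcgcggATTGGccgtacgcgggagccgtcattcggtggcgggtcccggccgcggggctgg
Thap4: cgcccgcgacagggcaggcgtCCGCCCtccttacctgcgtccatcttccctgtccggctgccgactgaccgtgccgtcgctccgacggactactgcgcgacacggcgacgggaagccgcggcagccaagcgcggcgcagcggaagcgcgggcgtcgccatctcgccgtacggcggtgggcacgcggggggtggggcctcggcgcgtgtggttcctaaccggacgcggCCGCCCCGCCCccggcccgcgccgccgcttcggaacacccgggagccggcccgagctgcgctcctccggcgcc

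All 9 genes had at least 1 promoter window in the RefSeq table, 12 windows in all. The GC box occurred in 8 of the 12 windows, from 7 genes, against 35.7% of all 32851 promoter windows. The ETS-type motif occurred in 5 windows, from 4 genes, against 14.9% of all windows, and CCAAT in 6 windows, from 5 genes, against 37.4%. TATAAA was found in 1 window, the second of Thap4, against 13.6%, and the NRF1 motif in 0 of 12, against 0.971%. The 4 windows printed hold between 2 and 3 GC boxes each. The Dnm3os window held none of the 5 motifs. The 2 windows of Ipo9 overlap almost wholly, so the same Ipo9 motifs enter the window counts from both. These counts describe letters in a fixed window and not bound sites.

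Before the values, the labels were set against markers. The 7 heart markers were detected on all 4 heart arrays, and the 9 fast muscle markers on both tibialis anterior arrays. The male label did not hold throughout. The inactive-X transcript Xist read 9.62 to 10.65 (log2) and was detected on each of the 6 arrays, while the Y-linked genes Eif2s3y (8.09), Kdm5d (4.98) and Uty (4.80) were detected on the P14 WT array alone. Means and counts over the 3 settings are therefore also given without the P14 pair where the genes or their chromosome are counted. Markers of other tissues moved with genotype: the summed signal of 9 fast muscle genes was 5987 in the P14 KO heart (9 detected) and 975 in the P14 WT heart (5 detected). That of 8 liver genes was 7658 in KO and 1175 in WT tibialis anterior (7 detected in each), that of 5 adipocyte genes was 882 in KO (3 detected) and 325 in WT tibialis anterior (2 detected), and that of 4 airway genes was 3351 in KO and 6711 in WT adult hearts (2 detected in each). The fast muscle genes also summed to 1643 in KO (4 detected) and 534 in WT adult hearts (3 detected). The part of these markers in the results on the 9 genes was not tested. The 4 endothelial markers, 3 of them detected on every array, summed to 2641 in KO and 2690 in WT hearts at P14, 1735 in KO and 1925 in WT adult hearts, and 831 in KO and 1035 in WT tibialis anterior.

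Of the 21 probes, 11 were detected on at least 2 arrays, 4 of them on all 6, and 10 on none, at a detection p under 0.01. Each level is a log2 intensity after background correction and quantile normalization. At least 2-fold lower in KO were 8 of 10 detected probes at P14, 8 of 10 in adult hearts and 7 of 8 in tibialis anterior. Over all detected probes of the array the same mark was passed by 0.681% at P14, 0.575% in adult hearts and 0.564% in tibialis anterior. In all 3 settings together, 6 of the 11 probes were at least 2-fold lower, against 0.0699% of 18585 probes, and in 7 of the 11 every KO array lay below every WT array, against 2.08%. Nothing is read from these shares, since the genes were picked on the same differences. With lower bounds in place of undetected values the 3 counts were 7, 8 and 6. The median of the 11 mean differences was -1.71, -1.69 without the P14 pair, and -1.18 with undetected values at their array's detection floor. Without that pair the mean difference was -5.46 for Cops8, -3.55 for Rpe, -2.31 for Thap4, -2.21 for Ipo9 and -1.69 for Rgl1, -2.03 and -1.10 for the 2 detected Gin1 probes, and -0.88 and -0.77 for those of Lgr6. In both adult settings together 6 of the 11 probes were at least 2-fold lower, and over all tested probes 22 were. Overlap on the adult arrays alone is not given, since its share over all probes was not computed.

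**Figure D1:**
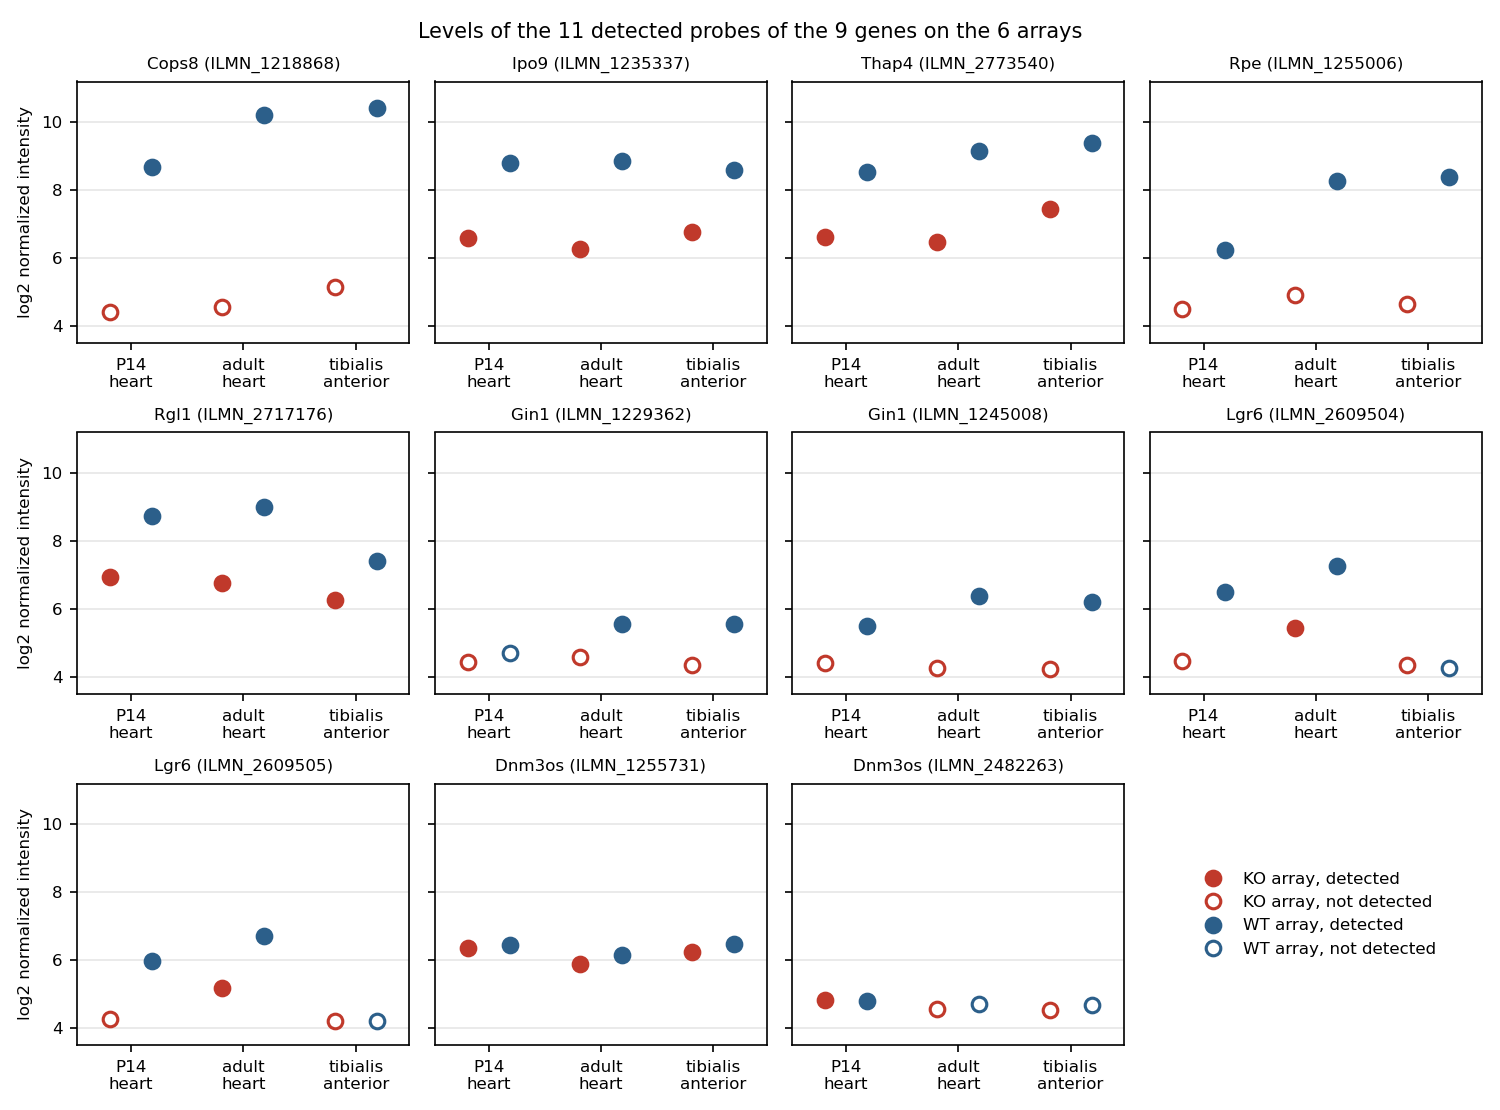
Log2 normalized intensity of the 11 detected probes of the 9 genes, 1 panel a probe, with the KO array (red) left of the WT array (blue) in the P14 heart, the adult heart and the tibialis anterior. Filled points were detected and open points were not. Cops8 lies between 4.41 and 5.16 on the KO arrays and between 8.67 and 10.43 on the WT arrays, while the 2 Dnm3os probes differ by at most 0.25.

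Cops8 was detected on every WT array and on no KO array. Its single probe (ILMN_1218868) read 4.41 in KO and 8.67 in WT hearts at P14, 4.57 in KO and 10.22 in WT adult hearts, and 5.16 in KO and 10.43 in WT tibialis anterior. On the linear scanner scale before any correction these were signals of 56.3 in KO and 499 in WT at P14, 56.45 in KO and 1141 in WT in the adult heart, and 63.94 in KO and 1292 in WT in the tibialis anterior. The array medians were 52.7 to 57.5, and the groups did not overlap. Each value was read on 27 to 49 beads. As the KO values are below detection, the fold is a bound: Cops8 was lower by at least 14.4-fold in KO hearts at P14, by at least 37.6-fold in the adult KO heart and by at least 37.8-fold in KO tibialis anterior. These bounds hold for the background correction and scaling used here. The measured differences averaged -5.06 ± 0.72 (SD over the 3 settings), and -3.94 without background correction. The WT level at P14 was the lowest of the 3 WT levels.

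Rpe behaved as Cops8 did in its detection, detected on every WT array and on no KO array by the probe ILMN_1255006. Its levels were 4.49 in KO and 6.23 in WT hearts at P14, 4.91 in KO and 8.27 in WT adult hearts, and 4.65 in KO and 8.40 in WT tibialis anterior. The groups did not overlap. Rpe was lower by at least 2.65-fold in KO hearts at P14, by at least 9.75-fold in the adult KO heart and by at least 9.24-fold in KO tibialis anterior, with a mean measured difference of -2.95 ± 1.07. A second Rpe probe was not detected on any array, with levels of 4.13 to 4.21.

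Ipo9 and Thap4 differed from Cops8 and Rpe in that their KO arrays kept a detected signal. Ipo9 (ILMN_1235337) read 6.58 in KO and 8.79 in WT hearts at P14, 6.28 in KO and 8.87 in WT adult hearts, and 6.76 in KO and 8.60 in WT tibialis anterior. It was lower in KO by 4.65-fold at P14, 6.02-fold in adult hearts and 3.58-fold in tibialis anterior. Ipo9 showed the smallest SD over settings of the 7 genes chosen as low, with a mean difference of -2.22 ± 0.37, and its other probe was undetected throughout. Thap4, with a single probe (ILMN_2773540), read 6.63 in KO and 8.55 in WT hearts at P14, 6.48 in KO and 9.15 in WT adult hearts, and 7.45 in KO and 9.39 in WT tibialis anterior. It was lower in KO by 3.80-fold at P14, 6.38-fold in adult hearts and 3.84-fold in tibialis anterior, a mean of -2.18 ± 0.43. For both genes the highest KO value (6.76 for Ipo9, 7.45 for Thap4) lay under the lowest WT value (8.60 for Ipo9, 8.55 for Thap4).

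Rgl1 was also detected on all 6 arrays (ILMN_2717176). It read 6.95 in KO and 8.74 in WT hearts at P14, 6.77 in KO and 9.0 in WT adult hearts, and 6.28 in KO and 7.42 in WT tibialis anterior. KO was lower by 3.46-fold at P14, 4.70-fold in adult hearts and 2.20-fold in tibialis anterior, with a mean difference of -1.72 ± 0.55. The groups did not overlap, though the highest KO value (6.95, P14 heart) and the lowest WT value (7.42, tibialis anterior) were closer than for Ipo9 and Thap4. The second Rgl1 probe was undetected, at 4.47 to 4.63.

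Gin1 was near the detection limit, and no KO array detected it. ILMN_1245008 read 4.41 in KO and 5.49 in WT hearts at P14, 4.28 in KO and 6.38 in WT adult hearts, and 4.24 in KO and 6.20 in WT tibialis anterior. KO was thus lower by at least 1.59-fold at P14, by at least 2.62-fold in adult hearts and by at least 2.01-fold in tibialis anterior. ILMN_1229362, a second probe, was detected in the adult WT heart (5.56, against 4.60 in KO) and in WT tibialis anterior (5.57, against 4.34 in KO), which puts KO at least 1.49-fold and 1.29-fold lower. At P14 it was detected in neither genotype. Both Gin1 probes were lower on every KO array than on any WT array, and over the 6 arrays they correlated at 0.944, a description of arrays that share their RNA. The remaining Gin1 probe, the only Gin1 probe annotated to a RefSeq transcript, was undetected.

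Lgr6 was the only one of the 7 low genes to depend on tissue for its detection. In the P14 heart ILMN_2609504 read 4.48 in KO and 6.51 in WT, and in the adult heart 5.44 in KO and 7.26 in WT. ILMN_2609505 read 4.26 in KO and 5.97 in WT at P14, and 5.18 in KO and 6.70 in WT in the adult heart. Both probes therefore showed KO lower in heart, by at least 3.21-fold and 2.21-fold at P14 and by 3.55-fold and 2.88-fold in the adult heart. In the tibialis anterior neither probe was detected in either genotype, with readings of 4.35 and 4.20 in KO and 4.27 and 4.22 in WT. The differences there (0.08 and -0.02) are between undetected readings, and the means over 3 settings, -1.26 and -1.08, include them. The 2 probes correlated at 0.999 over the 6 arrays. The other 2 Lgr6 probes were undetected throughout.

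**Figure D2:**
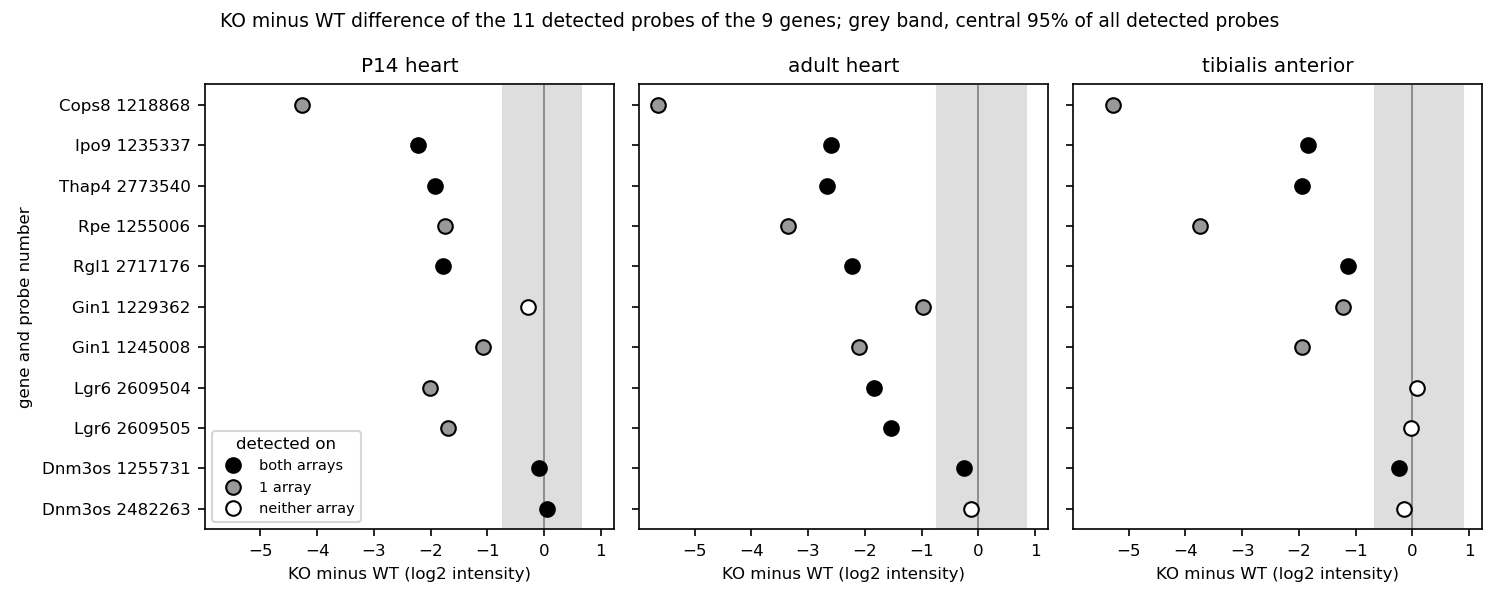
KO minus WT difference in log2 intensity of the 11 detected probes, 1 row a probe and 1 panel a setting. The grey band holds the central 95% of all detected probes (-0.73 to 0.65 at P14, -0.72 to 0.84 in adult hearts, -0.65 to 0.90 in tibialis anterior), and point fill gives how many of the 2 arrays detected the probe. All probes detected in a setting lie left of the band except those of Dnm3os.

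The host locus could be read through Dnm3os alone. Dnm3os (ILMN_1255731) was detected on all 6 arrays, at 6.35 in KO and 6.44 in WT hearts at P14, 5.89 in KO and 6.14 in WT adult hearts, and 6.24 in KO and 6.48 in WT tibialis anterior. The differences of -0.09, -0.25 and -0.24 lie inside the central 95% of all detected probes in each setting, and the KO and WT values overlapped. A second Dnm3os probe (ILMN_2482263) was detected only at P14, at 4.84 in KO and 4.80 in WT. The remaining Dnm3os probe and all 3 Dnm3 probes were detected on no array. Where the deletion lies relative to these probes is not known from the sources used here, and they are no check of it.

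The 10 undetected probes of the 9 genes read 4.13 to 4.73 on all arrays, with differences between -0.20 and 0.42. They show no more than that these probes gave no signal in either genotype. Among the 7 low genes, Ipo9, Rpe and Rgl1 rest on 1 detected probe of 2, Cops8 and Thap4 on their only probe, and Gin1 and Lgr6 on 2 detected probes each.

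Of the probes that were at least 2-fold lower in every setting, most lay on chromosome 1, where the choice of genes had placed 6 of them. Of the 13 probes at least 2-fold lower in KO in all 3 settings, 11 were on chromosome 1, 1 was on another chromosome (Ctsc, on chromosome 7, named after its value was seen) and 1 had no gene name. In both adult settings alone 22 probes passed this mark, 13 of them on chromosome 1, of which 6 were of the chosen genes. Besides 6 probes of the chosen genes the 11 found over all 3 settings held single probes of Mcm6, a subunit of the replicative DNA helicase, Insig2, a membrane protein that restrains cholesterol synthesis, Rab7b, a GTPase of endosomal traffic, Phlda3, an inhibitor of Akt signalling, and Steap3, an iron reductase of endosomes. In the limma fit of genotype with setting as a term, 12 of 18585 probes passed an adjusted p of 0.05, 0.0646% of those tested, and 1814 an unadjusted p of 0.05. The choice of genes used this contrast, and nothing is read from calls on their probes. There were 10 lower calls in all (0.0538%). Outside the chosen genes 4 probes were called lower, those of Mcm6, Insig2, Rab7b and Phlda3, all on chromosome 1, and 2 were called higher, neither on chromosome 1. The called Mcm6 and Rab7b probes were detected on WT arrays alone and entered the fit through them. With each array centred on its median the fit called 29 probes, 15 lower and 14 higher, so that the share of lower calls was 51.7%, against 83.3% with quantile normalization. Without the P14 pair the quantile-normalized fit called 58.

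Leaving the chosen genes out, chromosome 1 still held a larger share of low probes than the other chromosomes together. There, 8 of 876 probes (0.913%) had a mean difference of -1 or lower, against 9 of 15083 (0.0597%) on the other chromosomes. Higher by 1 or more were 6 of 876 (0.685%), against 41 of 15083 (0.272%). Without the P14 pair the counts at -1 or lower were 10 on chromosome 1 and 18 on the others, and at 1 or higher 9 and 104. The median difference was -0.05 over the probes of chromosome 1 and -0.02 over those of the others. These counts use the contrast on which the genes were chosen and have no test.

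The low probes were spread over a long stretch on 1 side of Dnm3. Counted along the 1204 protein-coding genes of chromosome 1 in the GRCm38.p6 gene table, Rgl1 lay 73 genes from Dnm3, Ipo9 138, Lgr6 147, Gin1 301, Thap4 319, Cops8 371 and Rpe 556, all at lower coordinates. Of the 642 tested probes at lower coordinates than Dnm3, 16 from 14 genes had a mean difference of -1 or lower, and of the 234 at higher coordinates 0 had. Without the chosen genes these counts were 8 of 633 and 0 of 234. Without the P14 pair 17 probes at lower coordinates, 10 of them outside the chosen genes, and 0 at higher coordinates passed the mark. The 8 probes belonged to Mcm6 (2 probes, 229 genes from Dnm3), Insig2 (249), Rab7b (202), Phlda3 (135), Steap3 (253), Gal3st2 (314) and Kdm5b (151). All lie between the positions of Rgl1 and Rpe in gene order. Within 100 genes of Dnm3 on the lower side, Rgl1 was the 1 such probe of 73.

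**Figure D3:**
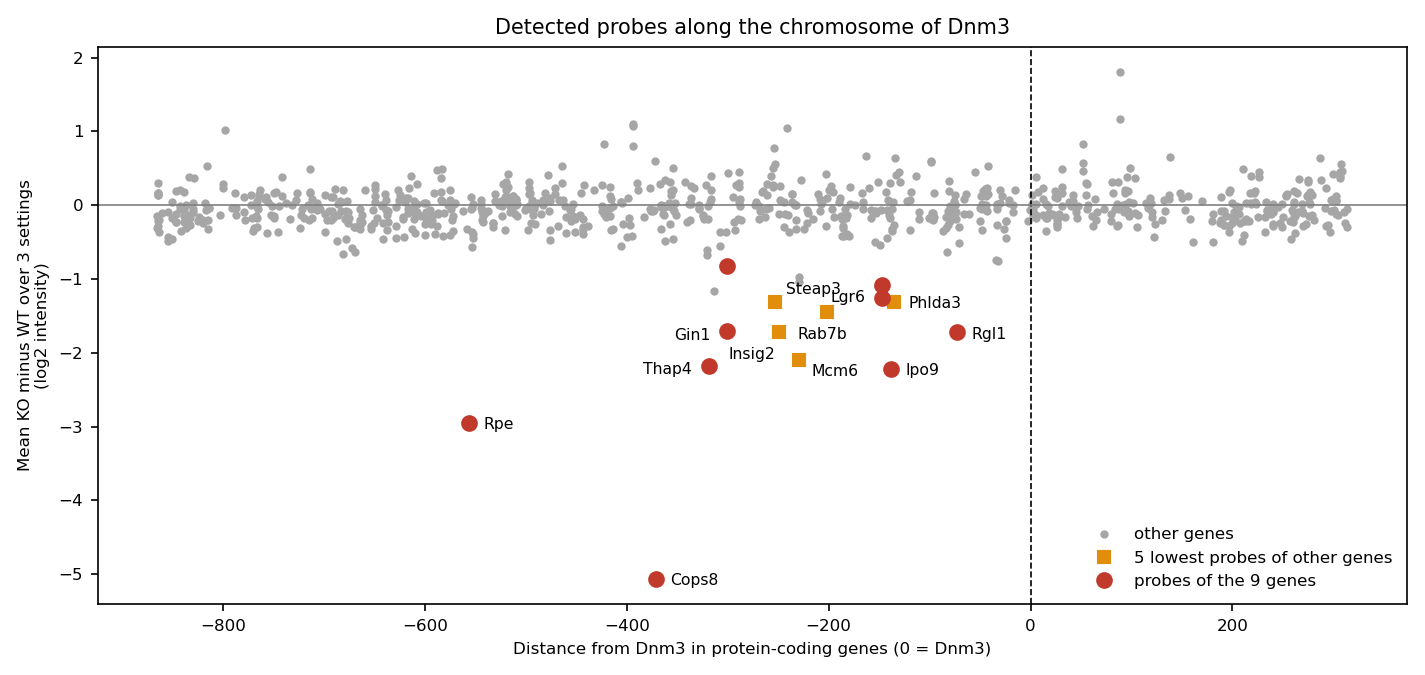
Mean KO minus WT difference over the 3 settings in log2 intensity (vertical axis) of each detected probe of a protein-coding gene on chromosome 1, by its distance from Dnm3 counted in protein-coding genes (horizontal axis, negative at lower coordinates). Red points are probes of the 9 genes and orange squares the 5 lowest probes of other genes. All 16 probes at -1 or lower lie left of Dnm3, between 73 and 556 genes away, among probes that lie near 0.

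Most genes next to the chosen ones differed by less than 0.5 on average between genotypes. The 3 nearest genes with a detected probe on each side of each gene, and the 10 nearest on each side of Dnm3, made 60 distinct neighbours, each taken at its brightest probe. Of these, 55 differed by less than 0.5 on average, 1 was at -1 or lower (Gal3st2, -1.16, a sulfotransferase 5 genes from Thap4), and their median was -0.06. Limma called 0 of the 60, against 12 of all 18585 tested probes. Among the 60, 11 had an unadjusted p under 0.05 in limma, against 1814 of the 18585. On the other chromosomes 1.13% of tested probes were at -0.5 or lower and 2.35% at 0.5 or higher. Both the share past 0.5 and the share under that p were larger among the neighbours. Leaving out the P14 pair, 50 differed by less than 0.5 and 1 was at -1 or lower. The choice of the brightest probe bears on this: of all 99 detected probes of the 60 genes, 3 were at -1 or lower, limma called 1 and 18 had an unadjusted p under 0.05. The further 2 were the dimmer probes of Phlda3, beside Ipo9 (ILMN_2628567, -1.31, the one called), and of Kdm5b, beside Lgr6 (-1.11). Beside Cops8 the neighbours ranged from -0.12 (Ramp1) to 0.59 (Ackr3, a chemokine receptor 1 gene away, with differences of 0.51 at P14, 1.10 in adult hearts and 0.17 in tibialis anterior). Beside Ipo9 they ranged from -0.32 (Nav1) to 0.30 (Shisa4), and beside Rpe from -0.38 (Lancl1) to 0.03 (Plekhm3). Beside Thap4 the range was -1.16 (Gal3st2) to 0.39 (Dtymk). Stk25, 2 genes away, averaged -0.61 and its other probe -0.67, while Bok and Atg4b, 1 gene on either side, averaged -0.01 and 0.04. Beside Rgl1 the range was -0.29 (Arpc5) to 0.15 (Dhx9), and beside Lgr6 -0.54 (Ppp1r12b) to 0.32 (Kdm5b). Beside Gin1 the range was -1.16 (Gal3st2 again, 13 genes away) to 0.43 (Pam). Ppip5k2 averaged -0.36 and, like Pam, lay 1 gene from Gin1. Around Dnm3 the 20 neighbours ranged from -0.75 (Angptl1) to 0.39 (Prrc2c), and the nearest, Pigc and Eef1aknmt, averaged -0.07 and 0.14.

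The 5 lowest probes of other genes on chromosome 1 were picked on the same KO minus WT difference as the chosen genes. A like pattern therefore follows from the choice, and nothing is read from their limma calls. The Mcm6 and Rab7b probes were detected on WT arrays alone, so they also entered the fit through the group in which they are high. Mcm6 (ILMN_1217331) was detected on no KO array and every WT array, reading 4.21 in KO and 6.88 in WT hearts at P14, 4.38 in KO and 6.55 in WT adult hearts, and 4.37 in KO and 5.81 in WT tibialis anterior. KO was thus lower by at least 4.17-fold at P14, 2.95-fold in adult hearts and 1.53-fold in tibialis anterior. The mean measured difference was -2.10 ± 0.62, and -1.41 with undetected values at their array's detection floor. Rab7b (ILMN_2769490) had the same detection pattern, which puts KO at least 1.89-fold lower at P14, 2.20-fold in adult hearts and 1.41-fold in tibialis anterior. Its mean measured difference was -1.45 ± 0.28, and -0.85 at the same floors. Insig2 (ILMN_2690256), detected on all arrays, differed by -1.19 at P14, -2.12 in adult hearts and -1.87 in tibialis anterior (limma adjusted p = 0.0240). Phlda3 (ILMN_2628567) averaged -1.31 ± 0.31 (limma adjusted p = 0.0287), and Steap3 (ILMN_2512949) averaged -1.31 ± 0.25 and missed the threshold in limma (adjusted p = 0.0518). Without the mean-variance trend the 4 called probes missed the threshold, with limma adjusted p-values of 0.0566 to 0.0638, as they did without the adult heart pair, with 0.147 to 0.279. Limma with an offset of 50 also left Mcm6 and Rab7b (adjusted p = 0.0634 each) and Phlda3 (0.109) uncalled. Over all probes Rab7b missed (limma adjusted p = 0.0579), and Phlda3 did without background correction and in the authors' values (0.0817 each) and without the tibialis anterior pair (0.101). Steap3 passed in limma with median centring (adjusted p = 0.00634) and without the P14 pair (0.0479). Without the P14 pair the mean differences were -1.81 for Mcm6, -1.57 for Rab7b, -1.99 for Insig2, -1.43 for Phlda3 and -1.35 for Steap3.

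For several of these genes another probe of the same gene did not share the difference. The other detected Insig2 probe averaged -0.12, against -1.72. The other Phlda3 probe averaged -0.27, against -1.31, the other Rab7b probe 0.09, against -1.45, and the other detected Steap3 probe 0.55, against -1.31. Kdm5b had 1 probe at -1.11 and 1 at 0.32. In Mcm6, by contrast, both other detected probes had negative means too, of -1.05 and -0.98, though not evenly: the first differed by -0.11 at P14 and the second by -0.43 in tibialis anterior. Among the 7 low genes such a second detected reading exists for Gin1 in the adult settings and for Lgr6 in heart, where the probes moved together. It exists for none of Cops8, Rpe, Ipo9, Thap4 and Rgl1.

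**Figure D4:**
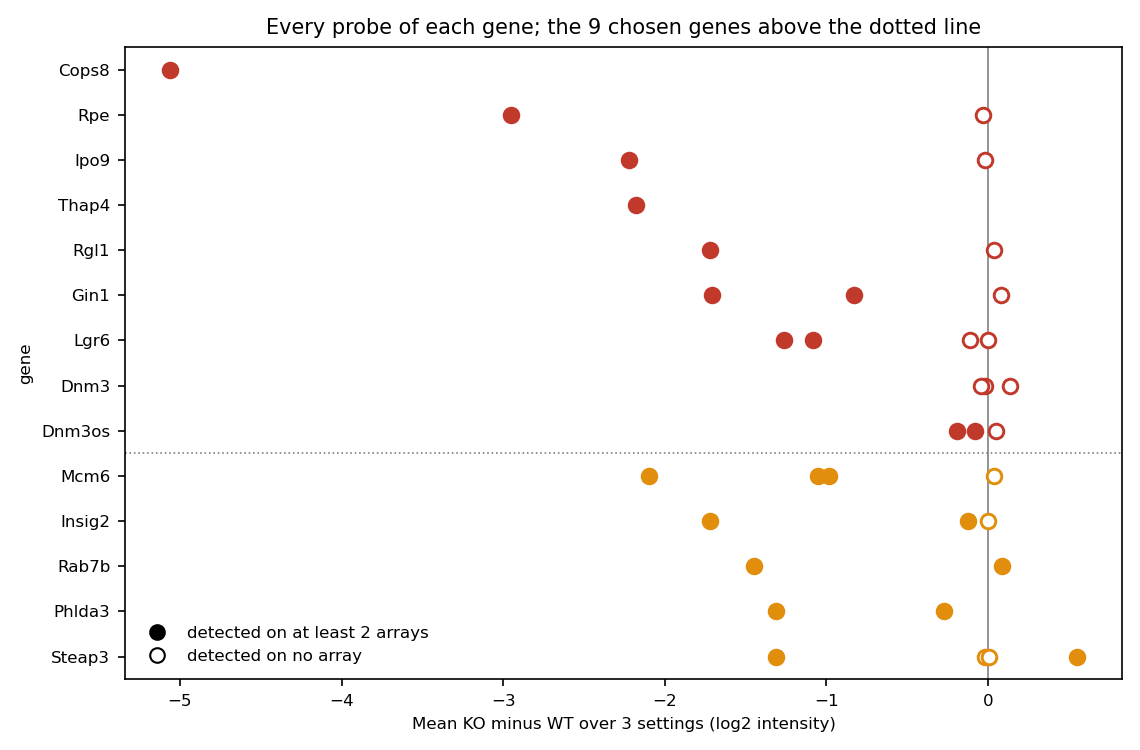
Mean KO minus WT difference over the 3 settings in log2 intensity (horizontal axis) of every probe of each gene (rows), with the 9 chosen genes in red above the dotted line and the 5 genes with the lowest other probes on chromosome 1 in orange below it. Filled points were detected on at least 2 arrays and open points on none. In Insig2, Rab7b, Phlda3 and Steap3 a second detected probe lies between -0.27 and 0.55.

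The highest probes of the chromosome were not called. Apoa2, a lipoprotein component made by liver, had 2 probes at 1.80 and 1.17, Ugt1a10, a glucuronosyltransferase, 2 at 1.10 and 1.07, and Lypd1 1 at 1.05 (limma adjusted p between 0.323 and 0.515). Apoa2 was highest in the tibialis anterior, 11.28 in KO and 8.20 in WT, the pair in which the liver markers above differed. Apoa2 is itself 1 of those 8 markers, and the other 7 summed to 5236 in KO and 898 in WT tibialis anterior.

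The 5 probes most like Cops8 over the 6 arrays all lay on chromosome 1. Among 8269 probes with a range of at least 1 log2 unit, the highest Pearson correlations were 0.983 for Gin1, 0.983 for Thap4, 0.980 for Fam20b, 0.972 for Steap3 and 0.967 for Rpe. With 6 arrays and a KO minus WT step in each, this ordering describes the arrays only. Gin1, Thap4 and Rpe were themselves chosen for that step on chromosome 1, and Steap3 is among its 5 lowest other probes. Fam20b, a xylose kinase of proteoglycan synthesis 34 genes from Dnm3, had a smaller but even difference, -0.71 at P14, -0.82 in adult hearts and -0.71 in tibialis anterior.

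Tissue and age, which the choice of genes did not use, were compared in the same fit. Rgl1 was lower in tibialis anterior than in adult heart, with means over genotypes of 6.85 and 7.89 (difference -1.04, SE 0.25, limma adjusted p = 0.00992). The difference was -1.58 between the WT arrays and -0.49 between the KO arrays. Both Lgr6 probes were lower in tibialis anterior too, at -2.04 (SE 0.44) and -1.73 (SE 0.36). As Lgr6 was undetected in tibialis anterior, these are at least 2.20-fold and 1.66-fold lower levels in tibialis anterior than in adult heart. Only heart arrays detected the 2 probes, so they entered the fit through the tissue in which they are high. Limma called both, and nothing is read from these 2 calls. Those 3 were the calls among the 11 probes, while 39.9% of all tested probes were called between the tissues. Thap4 differed by 0.60 in tibialis anterior minus adult heart (SE 0.21), which missed the threshold in limma (adjusted p = 0.0518). Cops8 (0.40, SE 0.30), Ipo9 (0.11, SE 0.21) and Rpe (-0.07, SE 0.41) did not pass.

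Between adult and P14 heart, 0 of the 11 probes were called by limma, against 12.0% of all tested probes, and 2 had an unadjusted p under 0.05. These 2 were Rpe and Cops8. Rpe differed by 1.24 in adult minus P14 heart (SE 0.41, limma adjusted p = 0.0891), by 2.05 between the WT arrays and by 0.42 between the KO arrays, which did not detect it. Cops8 differed by 0.86 (SE 0.30, limma adjusted p = 0.103), by 1.55 between the WT arrays and by 0.16 between the undetected KO arrays. With median centring the Rpe difference was 1.12 and passed, at an adjusted p of 0.0267 in limma. The P14 WT array is the one that detected Y-linked genes. Dnm3os differed by -0.38 (SE 0.19, limma adjusted p = 0.250).

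None of the tested partners and relatives of the chosen genes was called by genotype, where limma called 0.0646% of all tested probes. With so few calls on the array, 0 in a short list says little about its genes. The 9 other subunits of the COP9 signalosome were all detected, none was called in limma, and their median difference was 0.01, from -0.17 for Cops2 to 0.32 for Cops9. Cops5, which carries the catalytic site, averaged -0.01. Cops5, Cops7b and Cops9 also lie on chromosome 1. The 15 tested importins and exportins had a median of -0.11, from -0.41 for Kpnb1 to 0.18 for Ipo4. The 7 tested pentose phosphate genes had a median of 0.14, from -0.52 for Prps2 to 0.35 for Rpia, the isomerase that acts on the same substrate as Rpe. The 5 tested THAP genes had a median of -0.08, up to 0.51 for Thap3. The 5 genes of the RalGDS and Ral list had a median of -0.14, with Rala at -0.27. The 5 tested dynamin relatives had a median of -0.24, with Dnm1l at -0.36 and Opa1 at -0.35. Of 8 R-spondin receptors, ligands and regulators on the array none could be tested. Over all lists 46 of 67 genes were tested, 0 were called in limma, 3 had an unadjusted p under 0.05 and the median was -0.08, against -0.02 over all 18585 tested probes.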

How the data were processed

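The deposited scanner file holds, per the file headers, for 45281 probes on 6 arrays the mean bead intensity, its standard error, a bead count and a p-value of detection, with no background subtraction or normalization. The authors' processed intensities, also deposited, keep each array's rank order and lie within 0.343% of quantile-normalized scanner signals. The sources used here give no software for them. Each group has 1 array, and 0 columns of values were left over. Arrays had median signals of 52.7 to 57.5, 32.9% to 39.7% of probes detected, and a median of 43 or 44 beads a probe.

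Normexp background correction (limma 3.58.1, R 4.3.3) took its parameters from the detection p-values, with an offset of 16. Intensities were then quantile-normalized and put on the log2 scale. A probe was detected at a detection p under 0.01. Where 1 array of a pair did not detect it, its value was raised to that array's lowest detected signal if below it. The fold is then a lower bound under this processing, and other processing can give smaller folds. Differences within a pair have no test. Genotype, tissue and age entered a limma model with terms for setting and genotype (lmFit, then eBayes with a mean-variance trend), leaving 2 residual degrees of freedom. It ran over the 18585 probes that at least 2 arrays detected, and p-values were Benjamini-Hochberg adjusted. The genotype p-values measure variation between settings, array noise included. The fit was tested on simulated data. Alternatives were other background corrections and scalings, the authors' values, other detection filters, 1 brightest probe a gene, no trend, and leaving out each pair. Counts over the chromosome and the neighbours without the P14 pair, and with every detected probe of the neighbours, were added after seeing the data.

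Symbols come from the platform annotation (1 symbol for 34885 probes, several for 18, none for 10378), and gene order and chromosomes from the RefSeq table of GRCm38.p6. Probe sequences were not used here. The genes and the lists of relatives were chosen with earlier results of these data known. Named besides the 9 genes were the 5 lowest and 5 highest other probes of the chromosome, the 3 nearest detected genes on each side of each gene (10 for Dnm3), the 5 probes most like Cops8 and up to 2 genes a list. Ctsc, Cops5, Cops7b, Ipo4 and further probes of named genes were added after their values were seen.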

Additional observations from a re-analysis of the deposited data

How the results depend on the processing

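KO and WT were paired by setting in every fit. No paired analysis by replicate number was possible because each group has 1 array. Of 77 mean differences of single probes of the 9 genes under other settings, 71 moved by less than their SD over the settings and 6 by more: Cops8 was -3.94 without background correction, -3.92 with an offset of 50 and -3.94 in the authors' values, and the first Gin1 probe -1.0, -0.89 and -1.0. In the same order the median over the detected probes was -1.0, -0.89 and -1.0, against -1.71, and without 1 setting in turn it lay between -1.93 and -1.47. The count of probes of the 9 genes at least 2-fold lower at P14 was 5, 5 and 5 in these settings, against 8. With detection on both arrays the counts were 3 at P14, 5 in adult hearts and 3 in tibialis anterior. Over all probes the counts without background correction, with an offset of 50 and in the authors' values were 42, 41 and 42 at P14 (127 as reported), 40, 39 and 40 in adult hearts (105) and 23, 23 and 23 in tibialis anterior (89). With 1 brightest probe a gene, which tests fewer features, they were 64, 52 and 43. With detection on both arrays they were 60 in adult hearts and 37 in tibialis anterior, where lower bounds gave 53 and median centring 52. The genotype fit called 12 probes, and 29 with median centring, 4 with an offset of 50, 7 with the brightest probes and 3 without the trend. Leaving out 1 pair gave 5 (without the adult heart) to 58 (without P14), and 20 without the tibialis anterior. Between tissues 7407 probes were called, and 4429 with the brightest probes. Between ages 2235 were called, 3713 with median centring and 1460 with the brightest probes. With median centring the median difference over all probes was -0.25 between tissues and -0.22 between ages, against -0.04 and -0.02, and 70.4% and 76.2% of calls were lower, against 53.5% and 46.4%. It reversed 4 differences that were not called: Ipo9 (-0.15) and Dnm3os (-0.02) between tissues, and Thap4 (-0.02) and Rgl1 (-0.2) between ages. The Rgl1 call between tissues held under every alternative run. So did the Lgr6 calls, from which nothing is read because only heart arrays detected those probes. Some alternatives were chosen after seeing the data. Without the P14 pair, 22 probes were at least 2-fold lower in every setting, 13 of them on chromosome 1 and 6 of the 9 genes (13, 11 and 6 as reported). At -1 or lower were then 10 other probes of chromosome 1 (8) and 18 of other chromosomes (9), and at 1 or higher 9 (6) and 104 (41). At lower coordinates than Dnm3 17 were at -1 or lower (16), 10 of them of other genes (8), and at higher coordinates 0 (0). Of the neighbours 50 were within 0.5 (55) and 1 at -1 or lower (1), and 3 by any detected probe. Apart from the brightest-probe counts and the counts with detection on both arrays, where fewer features enter by construction, the cause was not tested. Probes near background limit the folds that can be measured.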
